A study of Mus musculus with 4 samples.

Results

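The 7 genes described here are Sncg and Sncb, which encode gamma- and beta-synuclein, and 5 genes used as signs of ganglion cell or neuronal differentiation, Thy1, Nrn1, Slc17a6, Slc17a7 and Uchl1. They were taken by symbol from tables that list 25239 gene IDs, and all 7 were found, each on 1 row per library. Positions are those of the tables, on the build mm10 (GRCm38). RNA from mouse retina at E13.5 (E, embryonic day) was sequenced from 2 control libraries and from 2 that carry the label Isl1cKO, a conditional knockout of the LIM-homeodomain transcription factor gene Isl1. The comparison asks which RNAs depend on Isl1 in the embryonic retina. The driver of the deletion, the strain, the control genotype and the number of animals in a library are not given in the sources used here. Nothing says that the 2 replicates of a group came from separate animals or litters, so p-values measure only the spread between these libraries.

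Retinal ganglion cells are the output neurons of the retina and the first neurons to be born there, and their axons form the optic nerve. Isl1 is known to act beside the POU factor Pou4f2 in their differentiation. Synucleins are small presynaptic proteins that associate with vesicle membranes, and gamma-synuclein is widely used to label ganglion cells. Thy1 is a GPI-anchored surface protein that adult ganglion cells carry, and Nrn1 encodes neuritin, a GPI-anchored protein that promotes neurite outgrowth. Slc17a6 and Slc17a7 encode the vesicular glutamate transporters VGLUT2 and VGLUT1, which load glutamate into synaptic vesicles. Uchl1 encodes a ubiquitin C-terminal hydrolase that is abundant in neurons.

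The sequences just before the transcription starts are shown because Isl1 is a homeodomain factor, a class of proteins whose common core motif is TAAT. A RefSeq promoter on GRCm38.p6 was found for 5 of the 7 genes. Thy1 and Nrn1 were not matched. Each sequence below holds the 250 bases before the start, 5′ to 3′ on the strand of the gene, with TAAT or its reverse complement in capitals. The first 3 belong to genes with lower values in the libraries labelled Isl1cKO, and the last to Sncb, which had slightly higher ones.
Sncg, chr14:34374670-34374919, minus strand: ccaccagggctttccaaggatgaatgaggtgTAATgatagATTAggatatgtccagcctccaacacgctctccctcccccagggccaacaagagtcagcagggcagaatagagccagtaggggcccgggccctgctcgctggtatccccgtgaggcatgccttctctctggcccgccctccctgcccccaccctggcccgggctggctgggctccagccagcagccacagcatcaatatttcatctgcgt
Uchl1, chr5:66675871-66676120, plus strand: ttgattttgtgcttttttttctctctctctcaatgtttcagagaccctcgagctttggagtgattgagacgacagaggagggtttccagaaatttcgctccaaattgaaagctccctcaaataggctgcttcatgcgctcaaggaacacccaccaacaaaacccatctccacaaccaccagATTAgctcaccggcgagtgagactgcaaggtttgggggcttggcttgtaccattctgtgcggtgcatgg
Slc17a6, chr7:51621580-51621829, plus strand: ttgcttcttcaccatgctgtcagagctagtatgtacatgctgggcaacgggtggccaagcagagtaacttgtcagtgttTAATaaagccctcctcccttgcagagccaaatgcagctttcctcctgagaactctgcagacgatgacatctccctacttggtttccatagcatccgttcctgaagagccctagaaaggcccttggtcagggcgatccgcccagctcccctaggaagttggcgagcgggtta
Sncb, chr13:54766596-54766845, minus strand: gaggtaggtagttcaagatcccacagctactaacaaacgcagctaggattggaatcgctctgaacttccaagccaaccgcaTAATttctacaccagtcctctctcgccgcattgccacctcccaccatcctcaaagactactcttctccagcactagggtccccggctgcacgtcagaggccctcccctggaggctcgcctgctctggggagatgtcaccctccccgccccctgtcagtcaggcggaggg

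In the Sncg sequence there were 2 matches, whose first bases lay 219 and 210 bases before the start. The sequences of Uchl1, Slc17a6, Sncb and Slc17a7 had 1 match each, which began 69, 171, 169 and 237 bases before the start. TAAT was present on either strand in 54.9% of 32851 RefSeq promoters of the same length. The promoter of Sncb held the motif as did those of Sncg, Uchl1 and Slc17a6, so its presence did not separate the genes by direction. The motifs CAGCTG, a form of the E-box bound by basic helix-loop-helix factors, and TATAAA, the TATA box, had no match in these 5 windows. They were found on either strand in 4271 and 4063 of all promoters. A second RefSeq start of Slc17a6, which is not the start in the deposited tables, had 4 TAAT matches, of which 3 overlapped. The RefSeq record of the Sncb gene reaches to 54766622, against 54766595 in the deposited coordinates. The last bases of the Sncb window thus lie inside that record. A match is a run of letters and not evidence of binding.

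Levels are given in TPM, a unit of transcript abundance that is scaled to transcript length and to a fixed sum per library, so that it can be compared between genes. Aligned sequence, derived from the median ratio of the deposited coverage to FPKM, was between 12.6 and 14.3 gigabases per library. Only 63.4% to 63.7% of the rows with a value lay close to that ratio, so this depth is approximate. The level of the targeted gene was not lower under the Isl1cKO label: Isl1 measured 242 and 201 TPM in replicates 1 and 2 of the control, against 321 and 223 TPM in replicates 1 and 2 labelled Isl1cKO. A value for the whole gene does not check a deletion of part of it, and every direction below rests on the labels. Isl1cKO replicate 2 lay furthest from the controls, at 30.5, on the first principal component of log2(TPM + 1), which held 63.6% of the variance. This component also separated the groups, with 7.13 for Isl1cKO replicate 1 and -21.8 and -15.8 for the controls. The correlation of Isl1cKO replicate 2 was 0.988 with Isl1cKO replicate 1, and 0.978 and 0.981 with the controls. Xist was at 0.501 TPM in Isl1cKO replicate 2 and between 209 and 287 TPM in the other 3. The values of the 5 tested genes and of the gene lists are therefore also given without Isl1cKO replicate 2 where they moved by over 1.5 times or changed sign. For the lists this was chosen after seeing the data.

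Over the 4 libraries the 7 genes covered a wide range. In the controls the order from the highest level was Sncg, Uchl1, Nrn1, Slc17a6, Sncb, Slc17a7 and Thy1, and no control value of one gene reached into the range of the next. In the libraries labelled Isl1cKO the ranges of Sncg and Uchl1 overlapped, while the order of the other genes was the same. The values of Sncg, Uchl1, Nrn1 and Slc17a6 were lower in both Isl1cKO libraries than in both controls. Sncb was slightly higher in both, and Slc17a7 and Thy1 were too low to be tested. Differences were tested with limma on log2(TPM + 1) over the 13984 genes with at least 1 TPM in at least 2 libraries, and 5 of the 7 genes passed this filter. None of the 5 had a Benjamini-Hochberg adjusted p-value under 0.05, against 0.493% of all tested genes. Before adjustment, p-values under 0.05 numbered 2, Sncg and Uchl1, both lower, where 12.1% of all tested genes lay in either direction and 8.92% on the lower side. The groups did not overlap for the 5 tested genes, 4 lower and 1 higher, as for 44.9% of all tested genes, and 30.0% of all tested genes on the lower side.

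**Figure D1:**
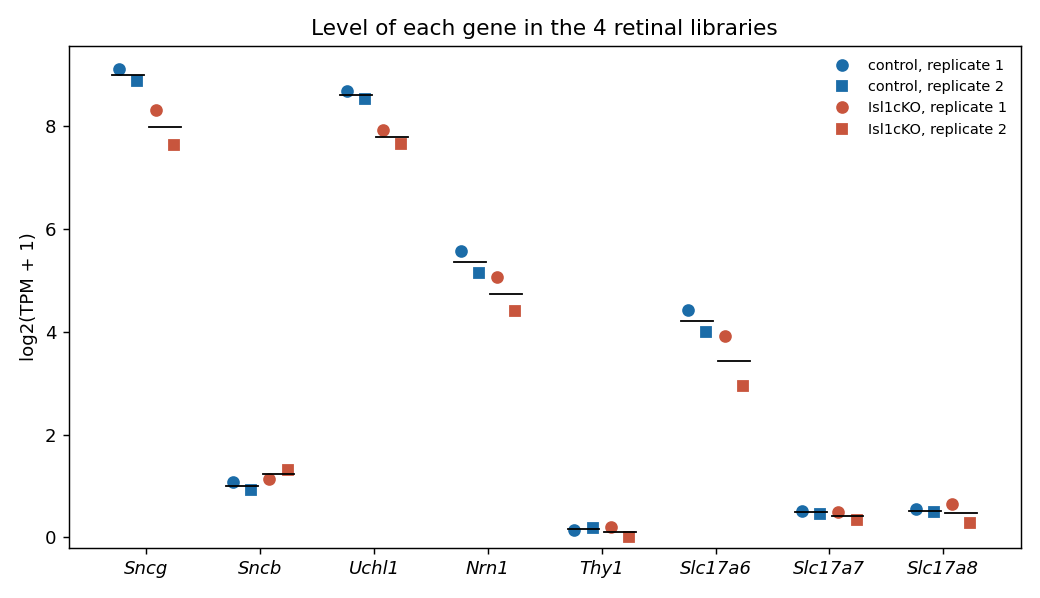
Level of the 7 genes and of Slc17a8 in each library, on the vertical axis as log2(TPM + 1). Blue marks are controls, red marks Isl1cKO, circles replicate 1, squares replicate 2, and lines the group means. Sncg, Uchl1, Nrn1 and Slc17a6 lie lower in both Isl1cKO libraries, Sncb lies slightly higher, and Thy1 and Slc17a7 stay near 0.

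Gamma-synuclein RNA was the most abundant of the set in the controls and about 2 times lower in the libraries labelled Isl1cKO. Sncg (chromosome 14, 34370274 to 34374669, minus strand) measured 552 and 472 TPM in replicates 1 and 2 of the control, against 320 and 198 TPM in replicates 1 and 2 labelled Isl1cKO. Both controls were higher than both Isl1cKO libraries, and the lowest value was that of Isl1cKO replicate 2. The means were 512 ± 56.6 TPM and 259 ± 86.0 TPM (SD, n = 2 each), a ratio of 1.98. Relative to the control mean, Isl1cKO replicate 1 held 62.5% and replicate 2 held 38.7%. By level, Sncg ranked 223 and 275 from the top of all gene IDs in the controls, and 456 and 807 in the Isl1cKO libraries. The log2 fold change was -1.02 (SE 0.25, 95% interval -1.69 to -0.34). Its adjusted p-value from limma was 0.276, and the unadjusted one 0.0129. The difference thus did not pass over all genes. It lay at the percentile 1.42 of all tested fold changes, counted from the lowest. Without Isl1cKO replicate 2 it was -0.67, and without Isl1cKO replicate 1 it was -1.36. In bulk tissue fewer cells of a type and less RNA per cell cannot be told apart, and this holds for every difference below.

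Beta-synuclein RNA was close to the filter for low values in every library. Sncb (chromosome 13, 54758860 to 54766595, minus strand) measured 1.13 and 0.897 TPM in the control pair, against 1.20 and 1.49 TPM in Isl1cKO replicates 1 and 2. The Isl1cKO values were above both controls, but Isl1cKO replicate 1 exceeded control replicate 1 by less than the controls differed from each other. Its mean coverage per base was between 4.43 and 7.37, against 982 to 2894 for Sncg. The log2 fold change was 0.22 (SE 0.11, 95% interval -0.08 to 0.52), which did not pass in limma (adjusted p = 0.526). A fold change on the log2(TPM + 1) scale understates the change of such a low gene, and with a pseudocount of 0.1 it was 0.38. It was 0.13 when Isl1cKO replicate 2 was left out and 0.14 when control replicate 2 was left out.

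Sncaip, the gene of synphilin, a synuclein-binding protein, measured 3.16 and 2.83 TPM in the control pair, against 2.36 and 2.14 TPM in the Isl1cKO libraries (log2 fold change -0.30, adjusted p-value 0.342 in limma).

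Uchl1 RNA was lower in both Isl1cKO libraries, and had the smallest p-value of the 5 tested genes. Uchl1 (chromosome 5, 66676121 to 66687234, plus strand) measured 414 and 369 TPM in replicates 1 and 2 of the control, against 242 and 201 TPM in replicates 1 and 2 labelled Isl1cKO. Each Isl1cKO value was below both controls, at 62.0% and 51.3% of the control mean. The means were 391 ± 31.5 and 221 ± 29.6 TPM (SD, n = 2 each), a ratio of 1.77. The log2 fold change was -0.82 (SE 0.13, 95% interval -1.17 to -0.47). Its adjusted p-value from limma was 0.140, and the unadjusted one 0.00223. With a mean-variance trend in place of the constant variance prior Uchl1 did pass (adjusted p = 0.0395 in limma). Over 10 other fits this value ran from 0.0367 to 0.267. Leaving out Isl1cKO replicate 2 gave -0.69, and leaving out Isl1cKO replicate 1 gave -0.96. An antisense gene, Uchl1os, overlaps 377 bases of Uchl1. It measured 1.89 and 1.57 TPM in the control pair, against 1.504 and 0.730 TPM in the Isl1cKO libraries, far below Uchl1. Whether strand was used in assigning reads is not stated.

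The ratio of Sncg to Uchl1 was 1.33 and 1.28 in the controls, 1.32 in Isl1cKO replicate 1 and 0.989 in Isl1cKO replicate 2. In 3 libraries the ratios were thus close to each other, and Isl1cKO replicate 2 was the only library in which Sncg did not exceed Uchl1. The other genes of the ubiquitin C-terminal hydrolase family had fold changes nearer to 0. Uchl3, Uchl5 and Bap1 had log2 fold changes of -0.03, -0.12 and -0.08, with adjusted p-values from 0.701 to 0.936 in limma. Their 95% intervals reached down to -0.37 for Uchl5 and -0.35 for Uchl3. Uchl3 measured 80.4 and 93.9 TPM in the control pair, against 89.8 and 80.3 TPM in the Isl1cKO libraries, where the groups overlapped. Its log2 fold change was above 0 when either replicate 2 was left out, at 0.05 for Isl1cKO and 0.08 for control.

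The 2 genes of GPI-anchored proteins differed in level by a wide margin. Nrn1 (chromosome 13, 36725622 to 36734477, minus strand) measured 46.6 and 34.3 TPM in replicates 1 and 2 of the control, against 32.5 and 20.3 TPM in replicates 1 and 2 labelled Isl1cKO. Isl1cKO replicate 1 lay just below control replicate 2, and the gap between them was smaller than that between the controls. The means were 40.4 ± 8.68 and 26.4 ± 8.62 TPM (SD, n = 2 each). On the log2 scale the difference was -0.62 (SE 0.27, 95% interval -1.34 to 0.11), which did not pass in limma (adjusted p = 0.477). It moved with single libraries: leaving out Isl1cKO replicate 2 gave -0.29, and leaving out Isl1cKO replicate 1 gave -0.94. Without control replicate 1 it was -0.40, and without control replicate 2 it was -0.83.

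Thy1 was at the edge of detection in each library. Thy1 (chromosome 9, 44043384 to 44048579, plus strand) measured 0.0979 and 0.141 TPM in the controls and 0.155 TPM in Isl1cKO replicate 1, and was listed at 0 in Isl1cKO replicate 2. Mean coverage per base was 0.514, 0.699 and 0.831 in the first 3 libraries, which is under 1 read deep. The groups overlapped, no fold change is given, and no difference was detectable at this low level. Of the 7 genes Thy1 had the lowest level in every library.

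A list of 10 other GPI-anchored proteins of the neuronal surface was read beside Nrn1 and Thy1. All 10 were tested, 8 had a log2 fold change below 0 and 2 above, and none passed over all genes in limma. Before adjustment, p-values under 0.05 numbered 5 lower and 1 higher, against 12.1% of all tested genes in either direction. The median was -0.41, and Ntm, which encodes the adhesion protein neurotrimin and lay nearest to it on the lower side, had -0.64 (adjusted p = 0.158 in limma). When Isl1cKO replicate 2 was left out the median was -0.27, with 6 of 10 below 0.

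Among the vesicular glutamate transporter genes only Slc17a6 exceeded 1 TPM in these libraries. Slc17a6 (chromosome 7, 51621830 to 51671126, plus strand) measured 20.6 and 14.97 TPM in replicates 1 and 2 of the control, against 14.1 and 6.68 TPM in replicates 1 and 2 labelled Isl1cKO. Isl1cKO replicate 1 was just below control replicate 2, and Isl1cKO replicate 2 was well below the other 3 libraries. The means were 17.8 ± 4.01 and 10.4 ± 5.27 TPM (SD, n = 2 each). On the log2 scale the difference was -0.79 (SE 0.37, 95% interval -1.76 to 0.19), which did not pass in limma (adjusted p = 0.492). Without Isl1cKO replicate 2 it was -0.30, and without Isl1cKO replicate 1 it was -1.28. The 2 replicates labelled Isl1cKO differed from each other by 0.98 on the log2(TPM + 1) scale, more than the groups did.

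Slc17a7 (chromosome 7, 45163921 to 45176139, plus strand) measured 0.436 and 0.379 TPM in the control pair, against 0.416 and 0.269 TPM in Isl1cKO replicates 1 and 2. It did not pass the filter, and the groups overlapped. In a fit of all genes with any value above 0, its log2 fold change was -0.07 (95% interval -0.31 to 0.17). Slc17a8, which encodes VGLUT3, was as low, between 0.209 and 0.578 TPM. Slc17a6 made up 95.9% and 95.01% of the summed TPM of the 3 transporters in the controls, and 93.4% and 93.3% in Isl1cKO replicates 1 and 2. Its share was thus lower in both Isl1cKO libraries, by less than 3 percentage points. With 2 libraries a group an exact permutation test cannot give a two-sided p below 0.333, and the shares are given as values with no test.

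Among the other vesicular transporters, Slc18a2, the monoamine transporter VMAT2, alone passed the filter. It measured 30.4 and 28.5 TPM in the control pair, against 25.3 and 15.3 TPM in the Isl1cKO libraries, with a log2 fold change of -0.55 (adjusted p = 0.478 in limma). This was -0.21 when Isl1cKO replicate 2 was left out and -0.90 when Isl1cKO replicate 1 was. Slc32a1, which loads GABA and glycine, measured 1.80 and 0.950 TPM in the control pair, against 0.860 and 0.401 TPM in the Isl1cKO libraries. Slc17a9, Slc18a1 and Slc18a3, the nucleotide transporter, VMAT1 and the acetylcholine transporter, did not exceed 0.596 TPM in any library. Of 9 genes of glutamate synthesis and uptake, 8 were tested, 7 lay below 0 and 1 above, and none passed over all genes in limma. Before adjustment, p-values under 0.05 numbered 2, both lower, against 8.92% of all tested genes on the lower side. The median of the 8 genes was -0.13, and -0.075 when Isl1cKO replicate 2 was left out.

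**Figure D2:**
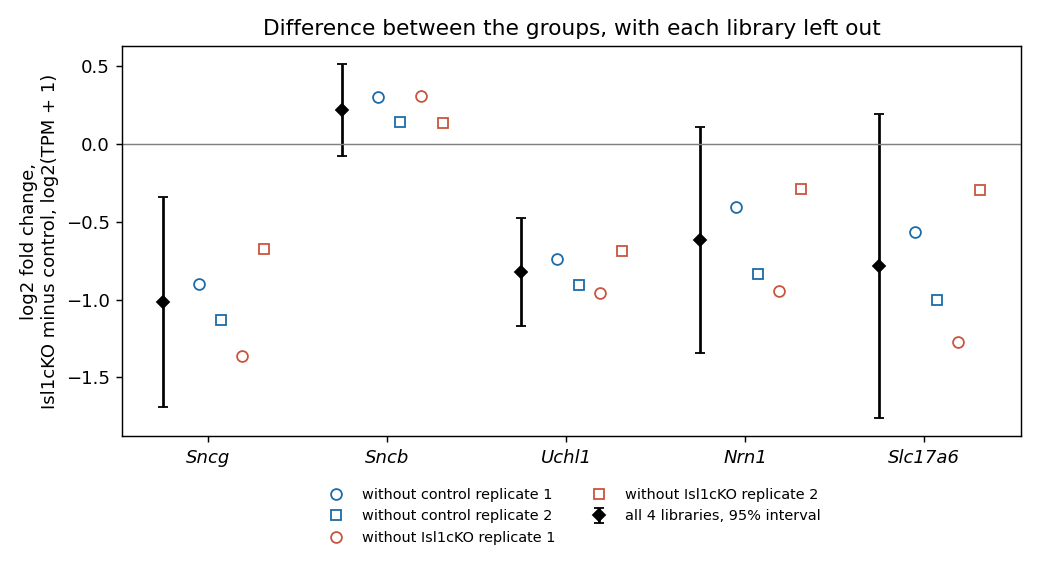
Log2 fold change, Isl1cKO minus control on the log2(TPM + 1) scale, for the 5 tested genes. Black diamonds with bars are the values over all 4 libraries with 95% intervals, and open marks the values with 1 library left out. Without Isl1cKO replicate 2 the values of Nrn1 and Slc17a6 are -0.29 and -0.30, while those of Sncg and Uchl1 are -0.67 and -0.69.

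The size of the difference was then set beside other gene lists from the same fit. The median log2 fold change was -0.79 over the 5 tested genes, and -0.05 over all tested genes, of which 63.8% lay below 0. Of 26 other ganglion cell genes, 23 were tested, and 16 lay below 0 and 7 above. Their median was -1.12, which is the value of Elavl4, an RNA-binding protein of neurons. Before adjustment, p-values under 0.05 in limma numbered 16 lower and 2 higher. Of all tested genes, 8.92% had such a value on the lower side and 12.1% in either direction. Of the 23 genes, 2 passed over all genes, both lower: Nell2, a secreted glycoprotein, and Irx2, an Iroquois transcription factor. Their adjusted p-values were 0.0239 and 0.0249 in limma. With any 1 of the 4 libraries left out neither passed, with adjusted p-values in limma from 0.0576 to 0.106 for Nell2 and from 0.0576 to 0.274 for Irx2, and log2 fold changes of -2.79 or lower and -1.20 or lower. Genes of postmitotic neurons in general were read next, with 16 of 16 below 0 and a median of -0.54. None of them passed over all genes in limma, and 10 had an unadjusted p-value under 0.05. Dpysl3, a gene of a cytoskeletal regulator in growth cones, lay at the middle of this list with -0.54 (adjusted p = 0.389 in limma). When Isl1cKO replicate 2 was left out, the general neuronal median was -0.36, with 15 of 16 below 0, and Dpysl3 was at -0.33. The other ganglion cell median was then -0.94, with 17 of 23 below 0. That of the 5 tested genes was then -0.30, no longer between these 2 medians. Elavl4 stands on both lists, and Cntn2 on the ganglion cell list and the surface protein list. The lists were written with earlier results of these data known, so their counts are a description, and no test compared them.

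Markers of other retinal cells did not share one direction. The amacrine list had a median of -0.48, with 5 of 6 tested genes below 0, and Gad2, a GABA-synthesizing enzyme, was at -0.49. The horizontal cell list had 0.26, with 4 of 5 above 0, and Calb1, a calcium buffer, was at 0.26. Calb1 was close to the filter for low values, at 0.945 and 0.672 TPM in the control pair, against 1.15 and 1.18 TPM in the Isl1cKO libraries. The photoreceptor list had -0.45, with 6 of 6 below 0, and Crx, a photoreceptor transcription factor, was at -0.45. Among 10 progenitor genes 5 lay below and 5 above 0, with a median of 0.04. None of the genes on these 4 lists passed over all genes in limma. Unadjusted p-values under 0.05 numbered 2, 1, 1 and 2 of 6, 5, 6 and 10 tested genes, against 12.1% of all tested genes. The 1 on the horizontal cell list was higher, and the others were lower. The medians of these 4 lists moved with single libraries. When Isl1cKO replicate 2 was left out, the photoreceptor median was -0.19, with 4 of 6 below 0 and Crx at -0.25, and the amacrine median was -0.31, with Gad2 at -0.30. The progenitor median then changed sign, to -0.12, and it was 0.21 when Isl1cKO replicate 1 was left out. The horizontal cell median was 0.03 when Isl1cKO replicate 1 was left out, and 0.15, as was Calb1, when control replicate 2 was. When control replicate 1 was left out, the amacrine and photoreceptor medians were -0.23 and -0.30. The photoreceptor median was -0.70 when Isl1cKO replicate 1 was left out, and the amacrine median was -0.72 when control replicate 2 was.

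The summed TPM of the other ganglion cell genes was 4776 and 4611 in the controls and 3060 and 2961 in Isl1cKO replicates 1 and 2. Atoh7, whose groups overlapped, made up 1025 and 1352 TPM of these in the controls and 1058 and 1458 TPM in the Isl1cKO libraries. Lens and red blood cell genes also had lower values in the Isl1cKO libraries. For lens genes the median was -2.04, with 7 of 8 genes below 0 and 4 past the threshold (Crybb3, Cryba4, Cryba1 and Cryaa, all lower). Cryaa did not pass when either control was left out, nor Cryba4 without control replicate 1 or Cryba1 without Isl1cKO replicate 2. For red blood cell genes it was -2.64, with 7 of 7 tested genes below 0. None of these passed over all genes in limma, and 3 had an unadjusted p-value under 0.05, against 12.1% of all tested genes. When Isl1cKO replicate 2 was left out the lens median was -2.01 and the red blood cell median -1.29, and the latter was -3.98 when Isl1cKO replicate 1 was. Microglia genes lay the other way, with 6 of 7 above 0 and a median of 0.29. The 8 lens genes summed to 155 and 188 TPM in the controls and to 8.48 and 6.33 TPM in the Isl1cKO libraries, and the 8 red blood cell genes to 2894 and 4147 TPM and to 1411 and 202 TPM. The part of these tissues in the differences of the synucleins and markers was not tested.

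**Figure D3:**
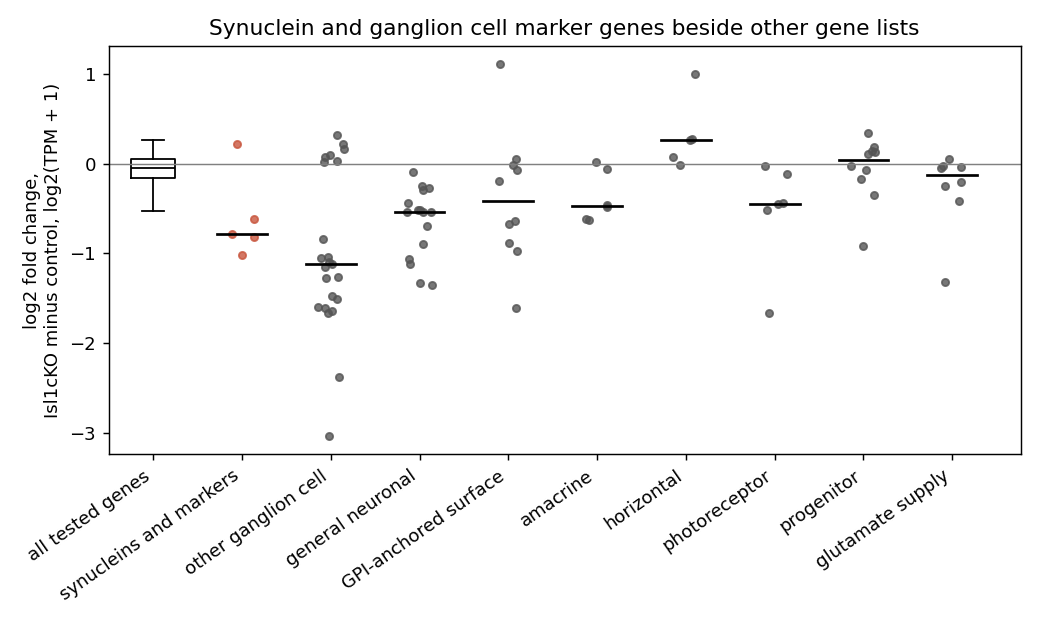
Log2 fold change, Isl1cKO minus control on the log2(TPM + 1) scale, of each tested gene in 9 lists, with the list median as a line. The box shows the middle part of all 13984 tested genes, with the median inside and whiskers at the percentiles 5 and 95. The red points are the 5 tested genes described here, with a median of -0.79 between those of the other ganglion cell list (-1.12) and the general neuronal list (-0.54). Without Isl1cKO replicate 2 these medians were -0.30, -0.94 and -0.36, and the first no longer lay between the others.

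Genes with the most similar pattern over the 4 libraries were found by the distance between their log2(TPM + 1) values, each taken relative to the mean of the gene in the controls. The 9626 genes (9627 for Sncb) with a mean of at least 10 TPM were searched, and the 3 nearest are given. Nearest to Sncg were Cacna1b, a presynaptic calcium channel, Stmn3, a microtubule regulator, and Nefm, a neurofilament subunit, at distances from 0.108 to 0.139. Uchl1 was nearest to Spock1, a proteoglycan gene, Tmem132e, and Scg3, a granin of secretory granules, from 0.0975 to 0.124. Nrn1 was nearest to Svop and Syp, 2 proteins of synaptic vesicles, and to Ntng2, a netrin-like GPI-anchored protein, from 0.0743 to 0.105. For Slc17a6 the nearest were Grm2, a metabotropic glutamate receptor, Snord15b, a small nucleolar RNA, and Tnik, a kinase, at larger distances from 0.271 to 0.309. Sncb was nearest to Zfp36l1, an RNA-binding protein, Tmem42 and Lrrc56, from 0.0268 to 0.0503. The log2(TPM + 1) scale understates changes of a gene as low as Sncb, so its distances cannot be compared with those of the other genes. With 4 libraries such likeness is a description of these libraries only.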

How the data were processed

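Poly(A)-selected, strand-specific RNA libraries of E13.5 retina, 2 control and 2 Isl1cKO, were used as deposited, 1 table per library. Per the submitters' processing notes, Trimmomatic, FastQC, HISAT2, SAMtools, StringTie and DESeq2 were used with the build mm10. Versions, annotation and parameters are not given in the sources used here. Per the file headers, the authors' tables hold TPM, FPKM and coverage per base. The deposited TPM were the main unit, the deposited FPKM an alternative, and the deposited coverage signal described depth only. As none of these are counts, a count model was not used, and depth in reads is unknown.

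TPM of gene IDs on several rows (171 to 234 per library) were summed. Genes with at least 1 TPM in at least 2 libraries entered lmFit and eBayes of limma 3.58.1 (R 4.3.3) on log2(TPM + 1), with genotype as the only term and a constant variance prior. P-values were adjusted by Benjamini-Hochberg over all tested genes, with a threshold of 0.05. The fit was also run on simulated data, with planted changes larger than any found for the 7 genes. That run does not show how well changes of their size are found. The 7 genes, the gene lists and the tests were chosen with earlier results of these data known. Named were the 7 genes, Isl1, members of the synuclein, vesicular transporter and hydrolase lists, in each other list up to 4 called genes and the gene with the median fold change, and the 3 genes nearest in pattern (mean of at least 10 TPM, no predicted genes, Riken clones or pseudogenes). Median genes of the lists of other tissues and of progenitors are not named, and 2 list genes are not reported here. The median log2 fold changes of the endothelium, mesenchyme, microglia and pigment epithelium lists were -0.34, -0.34, 0.29 and -0.36, and no member passed over all genes. They were -0.23, 0.00282, 0.16 and -0.12 when Isl1cKO replicate 2 was left out. Alternatives were 10 other fits and leaving out each library.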

Additional observations from a re-analysis of the deposited data

How the results depend on the processing

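Of the 5 tested genes none changed direction under the 10 other fits or when 1 library was left out, where each was tested. The count of these genes past the threshold, 0 with the constant prior, was 1 with a mean-variance trend and 1 with the replicate block, in each case Uchl1 (adjusted p-values 0.0395 and 0.0367, within a range of 0.0367 to 0.267 over its 10 other fits in limma). The count over all genes, 69, was 44 at a pseudocount of 0.1, 15 with no filter beyond a value above 0, 127 with FPKM, 110 with a mean-variance trend and 265 with the replicate block. Leaving out each library in turn, where the lone library of a group is assumed to vary like the other group, gave 10 to 37 genes, and 0 of the 5. The median log2 fold change of the 5 then ranged from -0.96 to -0.30, nearest to 0 without Isl1cKO replicate 2. The replicate numbers were taken as shared numbers only, since no label ties them to a litter or day. Across genes, the correlation between the 2 libraries numbered 1, each relative to its group mean, was 0.126. This value does not describe single genes: Sncg, Uchl1, Nrn1 and Slc17a6 were higher in replicate 1 than in replicate 2 of both groups. Sncb was so in the controls only. With the replicate block the adjusted p-values in limma were 0.0518 for Sncg, 0.0828 for Nrn1, 0.106 for Slc17a6 and 0.538 for Sncb. Sncb was not tested at a filter of 5 TPM or with FPKM. Thy1 and Slc17a7 were under 1 TPM in every library, so no filtered fit covered them.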

Other observations

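A few genes of the lists went against or beyond their neighbours and were chosen after their values were seen. Opcml, a GPI-anchored adhesion protein related to neurotrimin, measured 1.56 and 1.25 TPM in the control pair, against 4.81 and 3.58 TPM in Isl1cKO replicates 1 and 2. Its log2 fold change of 1.10 (SE 0.15) did not pass in limma (adjusted p = 0.106), while 8 of the 10 genes of its list lay below 0. Slc1a3, a glutamate transporter of glia and progenitors, measured 66.1 and 44.2 TPM in the control pair, against 18.5 and 23.9 TPM in the Isl1cKO libraries (log2 fold change -1.32, adjusted p-value 0.167 in limma). Atoh7, the factor that makes progenitors competent for the ganglion cell fate, had overlapping groups, at 1025 and 1352 TPM in the controls and 1058 and 1458 TPM in the Isl1cKO libraries. Onecut3, on the horizontal cell list, measured 10.03 and 8.53 TPM in the control pair, against 23.0 and 16.6 TPM in the Isl1cKO libraries (adjusted p = 0.171 in limma).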
